A study of Drosophila melanogaster with 27 samples.

Results

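The proteasome subunit genes of *D. melanogaster* were taken as the genes whose FlyBase symbol starts with Prosalpha, Prosbeta, Rpt or Rpn followed by a number, which gave 48 of the 16257 genes in the count tables. Of these, 32 are constitutive members whose symbol ends in the number, namely 7 of the alpha ring, 7 of the beta ring, 6 of the Rpt ring and 12 Rpn genes. The other 16 carry further letters after the number and are paralogs of a constitutive member, with 5 in the alpha ring, 6 in the beta ring, 3 in the Rpt ring and 2 among the Rpn genes. Their expression was followed by RNA-seq in larval ovaries at 72, 96 and 120 h after egg laying (early, mid and late), while the somatic cells of the ovary assemble terminal filaments. Whole ovaries came from the Oregon R strain, somatic cells were GFP-positive cells sorted from bab:Gal4>GFP ovaries, and germ cells were GFP-positive cells sorted from nos:GAl4>GFP ovaries, with 3 libraries in each of the 9 groups. Both sorted tissues came from the larval offspring of females that carry the nuclear GFP reporter UAS:Green Stinger and of GAL4 males. The bab:GAL4 stock is kept over the TM6B, Tb balancer and the nos:GAL4 stock also carries UAS-Dcr-2, so tissue and driver parent differ together. Whole ovaries were of another strain and were neither dissociated nor sorted, and every library pooled ovaries of many larvae.

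The proteasome is the large protease that degrades ubiquitinated proteins in the cytoplasm and nucleus of every eukaryotic cell. Its barrel-shaped core particle has outer rings of alpha subunits, which gate the entry, and inner rings of beta subunits, of which Prosbeta1, Prosbeta2 and Prosbeta5 are the proteolytic ones. The regulatory particle at the ends of the barrel binds and unfolds substrates through a ring of Rpt ATPases, and its Rpn subunits bind ubiquitin chains, remove them or hold the particle together. Several of the Drosophila paralogs are known as forms of the male germ line that replace their partner during spermatogenesis.

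All 32 constitutive genes passed the filter on low counts in each tissue. Of the 16 paralogs, 5 passed in whole ovaries, 4 in somatic cells, 6 in germ cells and 6 in the fit of both sorted tissues. Total counts per library ranged from 9680620 to 72875900, and 3 counts, taken as the floor of detection, correspond to 0.0412 to 0.310 CPM, the count scaled by the size of its library. Reads of the subunit genes made up 0.360% to 0.900% of the counts of a library. The sorted tissues carried the markers of their label, with summed levels of 9 germ cell markers of 2551 to 5930 CPM in germ cells against 16.4 to 49.4 CPM in somatic cells. The 10 somatic markers summed to 2403 to 4159 CPM in somatic cells and to 99.5 to 1878 CPM in germ cells. The paper raises the possibility, from bab1 and bab2, that particular germ cell libraries included some somatic cells. Whether the marker counts in germ cells came from somatic cells was not tested. Markers of the fat body, in which the larval ovary is embedded, summed to 5633 to 79213 CPM in whole ovaries, to 3335 CPM in germ mid replicate 1 and to at most 60.9 CPM in the other sorted libraries, and their part in the results was not tested. Whole ovary early replicate 3 and germ mid replicates 1, 3 and 4 differed from or within their groups in the subunit genes. Throughout, fewer cells of a type and less RNA per cell cannot be told apart in bulk samples, and CPM values of whole ovaries and of the sorted tissues were scaled separately.

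The constitutive subunit genes were expressed at similar levels per transcript length. Counts divided by exon length and scaled to a common total per library (TPM) had a median over the 32 genes of 270.5 in whole ovaries, 279 in somatic cells and 339 in germ cells (means of 9 libraries each). Within 2-fold of these medians lay 31, 31 and 29 of the 32 genes. The medians of the subcomplexes in whole ovaries were 349.7 TPM for the alpha ring, 346 TPM for the beta ring, 240.2 TPM for the Rpt ring and 226 TPM for the Rpn genes. Prosalpha7 was the highest gene of the alpha ring in all 3 tissues, at 521 ± 90.3 TPM in whole ovaries, 538 ± 111 TPM in somatic cells and 567 ± 166 TPM in germ cells (SD, n = 9). In the beta ring, Prosbeta6 had the highest mean over the 9 libraries of each tissue. Prosbeta1, which carries the caspase-like activity, had the lowest at 199 ± 62.6, 142 ± 51.2 and 147 ± 61.6 TPM, within the spread of Prosbeta4 at 200.5 ± 40.9 TPM in whole ovaries and 158 ± 56.8 TPM in germ cells, and which of both was lowest changed with the stage. In the Rpt ring, Rpt3 was highest at 387 ± 65.8, 380.3 ± 46.8 and 474 ± 160.2 TPM. Among the Rpn genes, the large scaffold subunit Rpn1 was highest at 439 ± 71.9, 441 ± 67.4 and 632 ± 224 TPM. The lowest Rpn gene was Rpn8 in whole ovaries at 145 ± 18.7 TPM and Rpn12 in somatic and germ cells at 151 ± 41.3 and 189 ± 59.5 TPM.

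Prosalpha1 had the lowest level of the alpha ring in each tissue, but its reads cannot be assigned with confidence. Prosalpha1 (2R:7827303-7828678) and Prosalpha1R (2R:7830413-7831771, both on the minus strand of BDGP6) lie next to each other as near-identical copies, and the counting divided shared reads between them. The share of their summed counts that went to Prosalpha1 ranged from 0% in somatic mid replicate 3, germ mid replicates 3 and 4 and germ late replicate 3 to 89.3% in germ mid replicate 1. Both genes are therefore described by their sum, which ran from 73.3 to 229 CPM over the 27 libraries. The summed pair did not pass the test at the adjusted p of 0.01 in any of the 14 comparisons, and its log2 change in somatic cells from early to late was -0.55 ± 0.18 (SE, edgeR adjusted p = 0.0304).

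**Figure D1:**
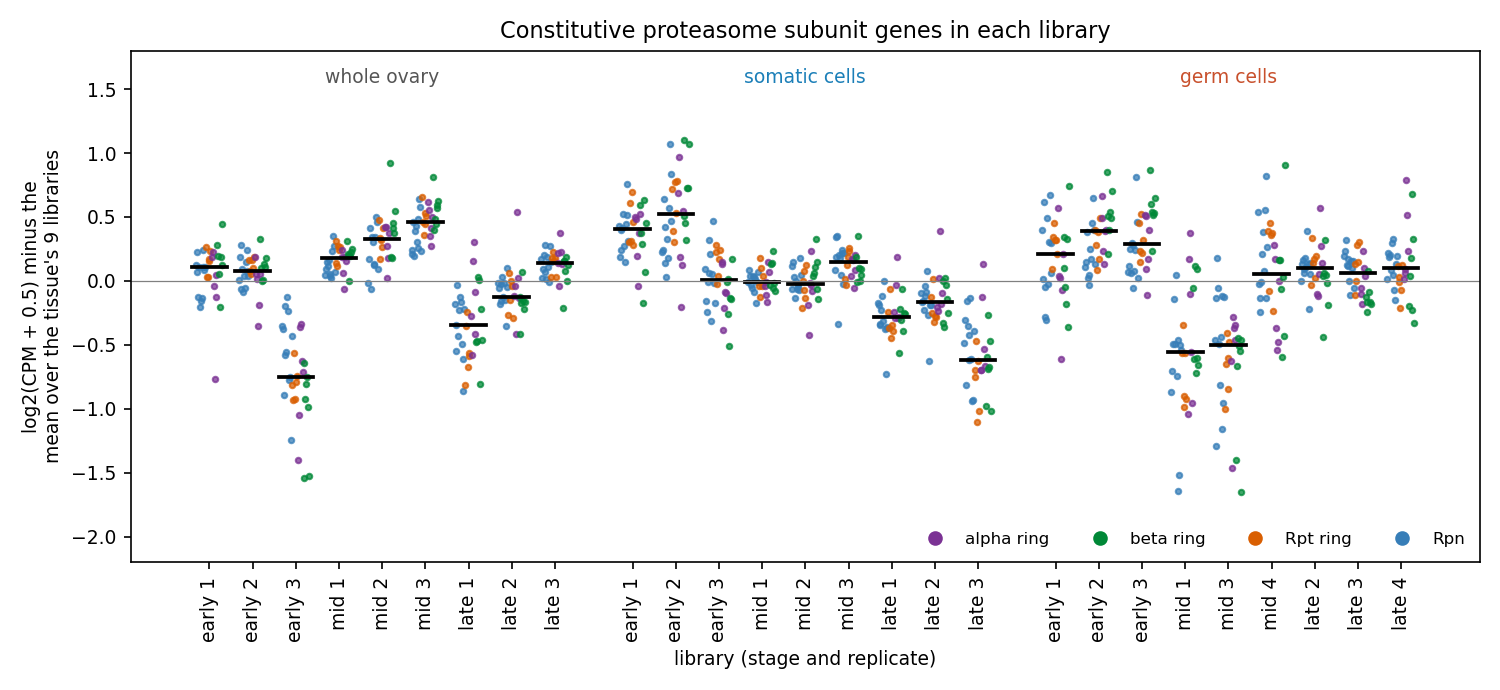
Level of the constitutive subunit genes in each library, as log2(CPM + 0.5) minus the mean over the 9 libraries of the tissue. Points are 31 genes (Prosalpha1 left out), coloured by subcomplex, and the black bars are medians over all 32. The somatic medians lie at 0.40, 0.52 and 0.00 in the early and at -0.29, -0.16 and -0.62 in the late libraries, whole ovary early replicate 3 lies at -0.75, and germ mid replicates 1 and 3 lie at -0.56 and -0.50.

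In somatic cells the subunit genes were lower at the late than at the early stage. Of the 36 members tested, 16 fell and 0 rose at an edgeR adjusted p under 0.01, where 11.3% of the 9931 genes tested fell and 11.7% rose, and 2 members were higher at an unadjusted p under 0.05 (24% of all genes). The 16 comprised 15 constitutive genes, with 2 of the alpha ring, 3 of the beta ring, 5 of the Rpt ring and 5 Rpn genes, and the paralog Prosbeta2R2. The median log2 fold change was -0.63 over the 32 constitutive genes, of which 30 had a negative value, and 0.02 over all genes tested. Early and late libraries did not overlap, with the late ones lower, in 22 of the 36 members and in 24% of all genes tested. The share of counts on all 48 members went from 0.699% ± 0.106 (SD, n = 3) in early over 0.605% ± 0.0462 in mid to 0.448% ± 0.0760 in late libraries, and early and late libraries did not overlap in it. With 3 libraries against 3, an exact permutation test of that share cannot give a p under 0.1. The late somatic libraries were shallower, and the peroxidasin gene Pxn of the hemocyte list had 11.0 to 68.4 CPM in early and 1719 to 2193 CPM in late libraries, while Hml, another hemocyte marker, stayed at 0 to 0.858 CPM in all somatic libraries. Their part in the result was not tested.

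The Rpn genes held the gene with the smallest p. Rpn11, the subunit that cleaves ubiquitin chains from substrates (2L:5058404-5059790, BDGP6), stood at 272, 337 and 222 CPM in the early, 143, 153 and 189.7 CPM in the mid and 96.8, 103 and 83.3 CPM in the late somatic libraries. The 3 stages did not overlap in it. Its log2 change from early to late was -1.54 ± 0.18 (adjusted p = 6.58e-05), and per length it went from place 5 to place 25 of the 32 constitutive genes. Rpn10, a receptor for ubiquitin chains, fell by 0.78 ± 0.16 (adjusted p = 0.00249) on the log2 scale, from 207, 227 and 159 CPM to 117, 127 and 99.7 CPM. Rpn12, Rpn6 and Rpn8, subunits of the lid, fell by 0.94, 0.58 and 0.53 on the log2 scale. Rpn13, also a ubiquitin receptor, had a log2 change of -0.53 that did not pass (adjusted p = 0.0227). The scaffold subunits Rpn1 and Rpn2 had -0.49 and -0.31 (adjusted p = 0.0189 and 0.0947). Rpn9 was the Rpn gene with the least difference, at 259, 263 and 187 CPM in the early and 233, 246 and 212 CPM in the late libraries (log2 change -0.03 ± 0.15).

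The Rpt ring, the ATPase motor, had the most negative median of the subcomplexes, with a log2 change of -0.82 and with 5 of 6 genes called. Rpt4 was at 222, 234 and 141 CPM in the early and at 100.4, 109 and 63.4 CPM in the late somatic libraries, which do not overlap. It fell by 1.12 ± 0.22 on the log2 scale (adjusted p = 0.00207), and Rpt6, Rpt2, Rpt5 and Rpt1 fell by 0.98, 0.85, 0.79 and 0.78. Rpt3, the member of the ring with the highest level, had a log2 change of -0.35 that did not pass (adjusted p = 0.103).

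In the beta ring, the catalytic subunits differed in their calls. Prosbeta1 was at 84.8, 121 and 55.8 CPM in the early and at 37.6, 44.6 and 28.2 CPM in the late somatic libraries, without overlap, and fell by 1.23 ± 0.25 on the log2 scale (adjusted p = 0.00269). Prosbeta5, with the chymotrypsin-like activity, was at 239.8, 257 and 141 CPM in the early and at 118, 151 and 96.9 CPM in the late libraries, which overlap, and its log2 change of -0.79 ± 0.22 did not pass (adjusted p = 0.0136). Prosbeta2, with the trypsin-like activity, had -0.49 ± 0.20 (adjusted p = 0.0785). Whether the 3 catalytic genes differ from each other was not tested. Of the structural beta subunits, Prosbeta7 and Prosbeta3 fell by 1.07 and 0.70 on the log2 scale, and Prosbeta4 had a log2 change of -0.01 ± 0.19.

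The alpha ring held members with values on both sides of 0. Prosalpha3 and Prosalpha2 fell by 0.96 ± 0.22 and 0.82 ± 0.17 on the log2 scale (adjusted p = 0.00521 and 0.00308). Prosalpha7 and Prosalpha6 had -0.67 and -0.47 (adjusted p = 0.0159 and 0.0257), and Prosalpha4 had -0.06 ± 0.16. Prosalpha5 had a positive value.

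The number of calls in this comparison rested on single libraries although the median did not. The count of called members was 4 without late replicate 3, 5 without early replicate 2, 6 without early replicate 1 or late replicate 1 and 22 without early replicate 3, with medians of the constitutive genes from -0.76 to -0.52, and DESeq2 called 25 members (23 lower and 2 higher, where 14.9% and 15.5% of all genes were called). The shares of all genes called without each library are not given here. A shift in the count is therefore not read as particular to the subunits. Early replicate 3 was the lowest early library for 30, and late replicate 3 the lowest late library for 31, of the 32 constitutive genes.

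Between neighbouring stages of somatic cells edgeR called 0 members. From early to mid, where 1.9% of all genes were called, 10 members were lower and 1 was higher at an unadjusted p under 0.05 (11.3% and 12.2% of all genes), and the constitutive median was -0.29. From mid to late, where 6.56% of all genes were called, 15 members were lower and 1 was higher at an unadjusted p under 0.05 (14% and 15.4% of all genes), and the constitutive median was -0.33. DESeq2 called 2 members (4.09% of all genes were lower) in the first interval and 4 (8.22%) in the second, all of them lower. The group mean was highest at the early stage for 26 and lowest at the late stage for 30 of the 32 genes.

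**Figure D2:**
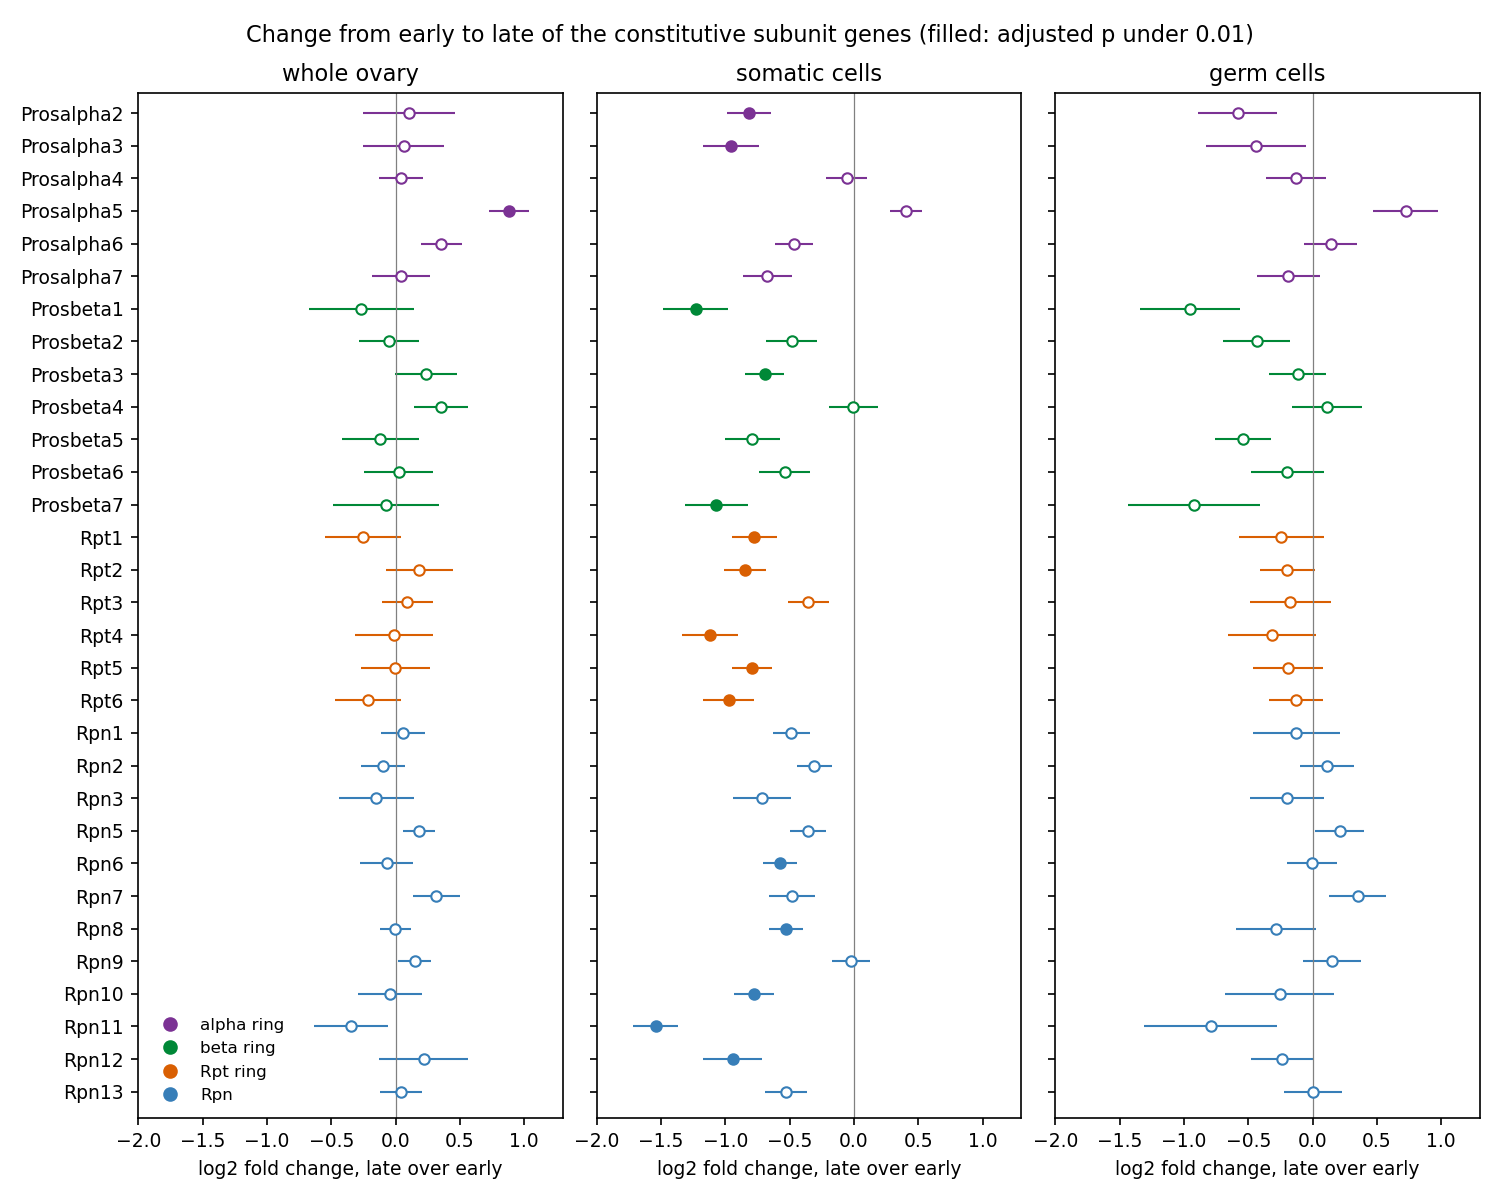
Log2 fold change from early to late (late over early, bars are SE) of 31 constitutive subunit genes in whole ovaries, somatic cells and germ cells, from edgeR fits of 9 libraries per tissue, coloured by subcomplex. Filled points have an adjusted p under 0.01. In somatic cells 15 genes are filled, all below 0 and led by Rpn11 at -1.54, in whole ovaries Prosalpha5 at 0.88 is the filled one, and in germ cells none is filled.

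Prosalpha5 (2R:17412767-17413769, BDGP6), an alpha ring subunit, had higher values at late than at early in all 3 tissues. In whole ovaries it stood at 93.9, 125 and 127 CPM in the early, 154, 163 and 194 CPM in the mid and 198, 233 and 208 CPM in the late libraries, with no overlap between stages. It rose by a log2 change of 0.88 ± 0.16 from early to late (adjusted p = 0.00226) and was the constitutive gene called among the 32 in that comparison, where 8.39% of all genes rose. Without late replicate 2 it was no longer called there (log2 change 0.82, adjusted p = 0.0126). In somatic cells it was at 176, 157 and 156 CPM in the early and at 205, 238 and 198 CPM in the late libraries, without overlap, and its log2 change of 0.40 ± 0.13 did not pass edgeR (adjusted p = 0.0249) but passed DESeq2 (adjusted p = 0.00595). In germ cells it was at 65.2, 109.6 and 92.6 CPM in the early, 93.0, 77.1 and 68.6 CPM in the mid and 148, 118 and 173 CPM in the late libraries, with the late ones above all others and a log2 change of 0.72 ± 0.25 (adjusted p = 0.611). Per length it moved from place 17 to place 2 of the 32 genes in whole ovaries, from 15 to 1 in somatic cells and from 29 to 10 in germ cells. Its late level of 482 ± 38.2 TPM in somatic cells (SD, n = 3) was the highest of any subunit gene in that group.

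**Figure D3:**
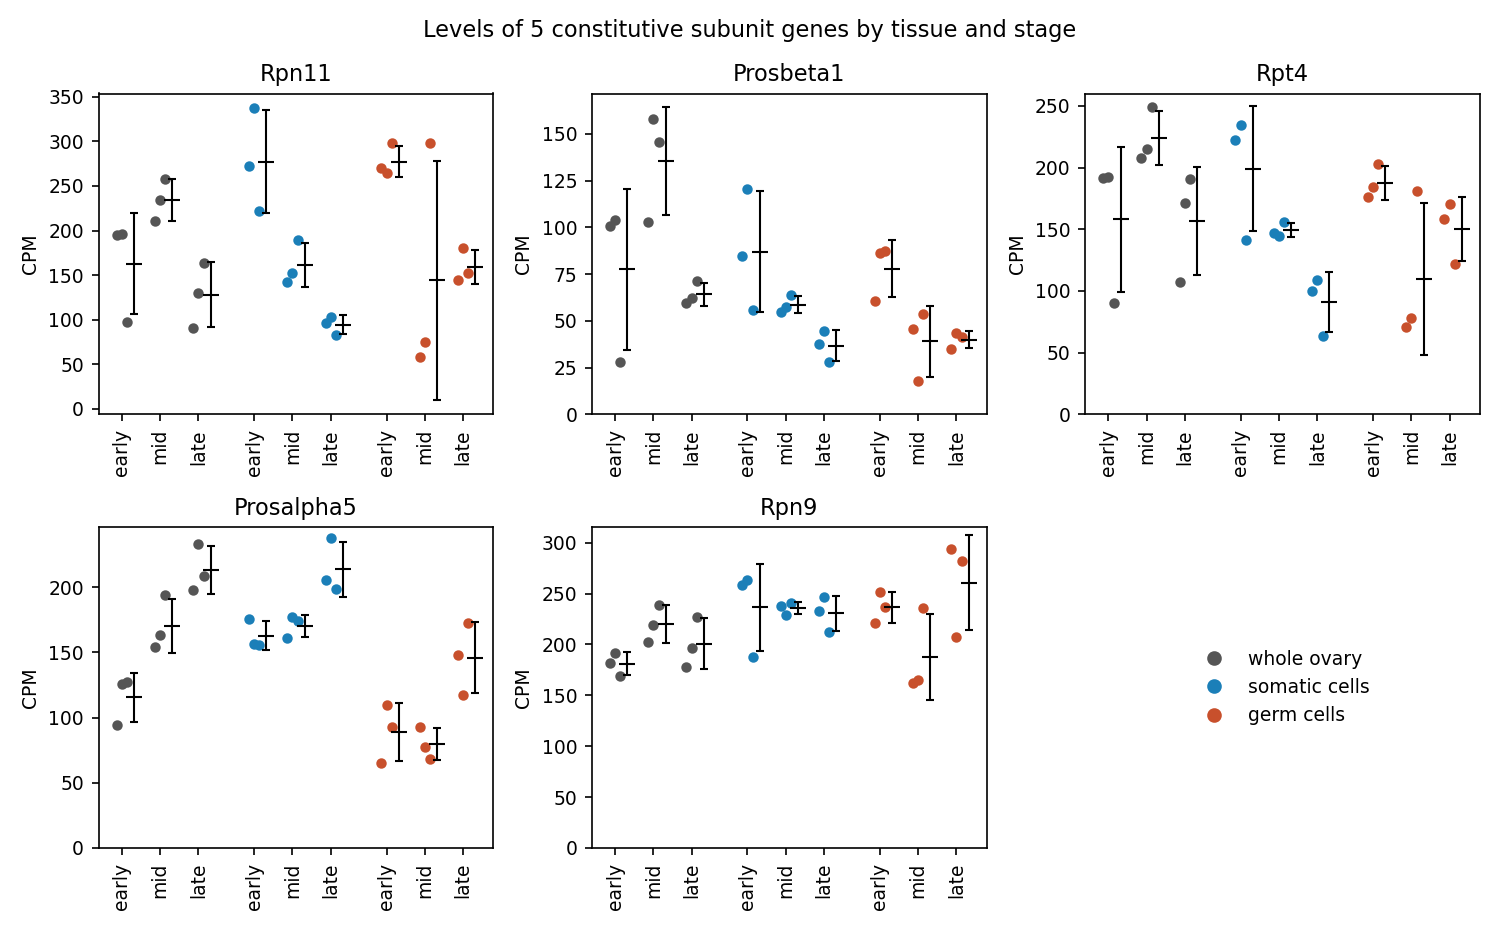
CPM of Rpn11, Prosbeta1, Rpt4, Prosalpha5 and Rpn9 by tissue and stage, with 1 point per library and the mean ± SD of 3 libraries beside it (part of an error bar below 0 is not drawn). Somatic Rpn11 goes from a mean of 277 to 94.5 CPM and somatic Prosalpha5 from 163 to 214 CPM, and the 3 germ mid libraries are spread from 58.7 to 298 CPM in Rpn11.

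In whole ovaries the constitutive genes were highest at the mid stage, but no stage difference of a constitutive gene other than Prosalpha5 passed. The fat body markers were also highest at mid, with summed levels of 18194 to 24696 CPM at early, 33197 to 79213 CPM at mid and 5633 to 10265 CPM at late, and their part in the pattern was not tested. From early to mid, all 32 had a positive log2 change, with a median of 0.50 against 0.03 over all 10060 genes tested, and 0 of 37 members were called (0.994% of all genes were). At an unadjusted p under 0.05, 4 members were higher (10.7% of all genes), DESeq2 called 0, and the early and mid libraries did not overlap in 25 members that were higher at mid (17.4% of all genes). From mid to late, 31 of the 32 had a negative value, with a median of -0.41 against -0.11 over all genes. The 1 member called, of 9.07% of all genes that fell, was Prosbeta2R2, while 7 members were lower at an unadjusted p under 0.05 (27.4% of all genes). From early to late the constitutive median was 0.04 against -0.05 over all genes, and Prosbeta2R2 was again the 1 member that fell (13.5% of all genes fell). With library totals in place of scaling factors, the median of all genes moved to 0.10 from mid to late and to 0.14 from early to late, and the constitutive median to -0.18 and 0.24.

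Within the early stage of the whole ovary, replicate 3 stood apart. It was the lowest of its group in 30 of the 32 constitutive genes, with a median of -0.91 on the log2(CPM + 0.5) scale against the mean of the other replicates, where the 6594 genes of at least 10 CPM on average had -0.06. Prosbeta7 stood at 316, 261 and 80.0 CPM in the 3 early libraries and Prosbeta1 at 101, 104 and 28.1 CPM, while Rpn1 stood at 748, 687 and 537 CPM. The exceptions were Prosalpha5, with 127 CPM in replicate 3 above 93.9 CPM in replicate 1, and Rpn8, a lid subunit, with 105 CPM above 103 CPM. Without this library the constitutive median was 0.19 from early to mid, and from early to late it turned from 0.04 to -0.17. Mitochondrially encoded genes held 10.5% of its counts against 6.89% and 9.0% in early replicates 1 and 2, hemocyte markers summed to 676 CPM against 324 and 288 CPM, and muscle markers to 1039 CPM against 189 and 724 CPM, and their part in the difference was not tested.

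In germ cells edgeR called 0 members and 0% of the 10340 genes tested in each of the 3 stage comparisons. From early to mid the constitutive median was -0.62 against -0.11 over all genes, with 31 of 32 values negative, 13 of 38 members lower at an unadjusted p under 0.05 (11.4% of all genes) and 2 lower by DESeq2 (3.14% of all genes). From mid to late the median was 0.29 against 0.10, with 30 of 32 positive, 9 members higher at an unadjusted p under 0.05 (8.89% of all genes) and 1 by DESeq2 (1.56%). Without mid replicate 1, 3 or 4 this median was 0.26, 0.18 and 0.67, and that from early to mid was -0.56, -0.39 and -0.82. From early to late the median was -0.20 against 0.01, 1 member was higher and 2 were lower at an unadjusted p under 0.05 (3.74% and 2.81% of all genes), and DESeq2 called 0.

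The germ mid libraries did not resemble each other in these genes. Rpn11 was at 58.7 and 75.2 CPM in mid replicates 1 and 3 and at 298 CPM in replicate 4, which is the level of the early germ cells at 269.8, 265 and 298 CPM. Prosbeta7 was at 102, 51.0 and 302 CPM and Rpt4 at 70.6, 78.2 and 181 CPM. The subunit genes took 0.360%, 0.446% and 0.876% of the counts of mid replicates 1, 3 and 4, mitochondrially encoded genes took 21.8%, 8.74% and 2.33%, and the somatic markers summed to 1829, 1192 and 511 CPM. Their part in the result was not tested. Without replicate 4, 6 members were called from early to mid, all lower, where 4.4% of all genes were called in that fit. In the late germ cells Rpn11 was at 145, 181 and 152 CPM, below all early ones, with a log2 change of -0.79 ± 0.52 that did not pass.

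Germ and somatic cells were next compared over all stages, a contrast in which 12.7% of the 11243 genes tested were higher and 12.6% lower in germ cells. Of 38 members tested, 2 were higher, both paralogs (Rpt3R and Rpn12R, the latter admitted to the test by its germ counts alone), and 3 were lower, all constitutive (Prosalpha5, Prosalpha6 and Prosbeta4). The constitutive median was -0.02 against 0.02 over all genes, with 16 genes positive and 16 negative. The 6 alpha ring genes other than Prosalpha1 had a negative value, with a median of -0.23, and the sum of Prosalpha1 and its copy had 0.16 ± 0.12, while the Rpn genes had a median of 0.11. With library totals in place of the scaling factors, the median of all genes moved from 0.02 to 0.32 and the constitutive median to 0.31. In that fit 7 members were called higher and 1 lower. The shares of all genes called in it are not given here, so these counts are not read as particular to the subunits.

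Of the constitutive genes lower in germ cells, Prosalpha6 and Prosbeta4 were called at the mid stage and at no other, and whether the stages differ in them was not tested. Prosalpha5 had a log2 difference of -0.84 ± 0.11 over all stages (adjusted p = 2.87e-05), and its highest germ library at the early and mid stages, at 109.6 CPM, was below its lowest somatic one there, at 156 CPM. At late its highest germ library, at 173 CPM, was also below its lowest somatic one, at 198 CPM. At the single stages Prosalpha5 was lower at early (-0.87, adjusted p = 0.00868, no longer called without any 1 of 12 of the 18 libraries) and at mid (-1.10, adjusted p = 0.00135) and had -0.55 at late (adjusted p = 0.0625). Prosbeta4, a structural beta subunit, stood at 30.2, 35.1 and 33.0 CPM in germ mid and at 92.1, 98.5 and 83.9 CPM in somatic mid libraries, a log2 difference of -1.48 ± 0.24 (adjusted p = 0.000634). Prosalpha6 stood at 66.8, 77.4 and 70.2 CPM against 157, 167 and 163 CPM at the same stage, with -1.18 ± 0.18 (adjusted p = 0.000314). Neither overlapped between the tissues at mid. Prosbeta4 had a log2 difference of -0.28 at early and -0.16 at late, and Prosalpha6 had -0.50 and 0.11, none of which passed. In the mean of the early and late contrasts fitted without the germ mid libraries, Prosalpha6 and Prosbeta4 had -0.20 and -0.22 and were no longer called, while Prosalpha5 at -0.71 still was.

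By stage, 1 member was called at early (lower, 1.57% of all genes), 3 at mid (lower, 3.59%) and 2 at late (higher, 4.89%). The constitutive median went from -0.04 at early to -0.36 at mid and 0.26 at late, against 0.08, -0.03 and 0.11 over all genes. Leaving out 1 library at a time, it ranged from -0.22 (without somatic early replicate 3) to 0.06 (without somatic early replicate 2) at early, from -0.63 (without germ mid replicate 4) to -0.22 (without germ mid replicate 3) at mid and from 0.13 (without somatic late replicate 3) to 0.37 (without somatic late replicate 2) at late. At late, all 6 Rpt genes and all 12 Rpn genes had a positive value, with medians of 0.58 and 0.53, while the alpha and beta rings had 0.08 and 0.12. Rpt6 was at 211, 227 and 201 CPM in the late germ and at 118, 127 and 75.7 CPM in the late somatic libraries and was higher in germ cells by a log2 difference of 1.0 ± 0.22 (adjusted p = 0.0049). At an unadjusted p under 0.05, 15 members were higher at late (16.2% of all genes), and late germ libraries were all above late somatic ones in 21 of 38 members (31.7% of all genes). DESeq2 called 5 members higher at late (9.68% of all genes), edgeR called 10 when the 3 germ mid libraries were left out of the fit (19.4% of all genes in either direction), and 0 when late replicate 1 or 3 of the somatic cells or any 1 late germ library was. At mid, 11 members were called without germ mid replicate 4, all lower (10.9% of all genes in either direction). A difference in the change from early to late between the tissues was called for none of the 38 members (0.116% of all genes were called). At an unadjusted p under 0.05, 7 members had a positive and 0 a negative difference (5.6% and 5.72% of all genes), and DESeq2 called 0. The difference had a constitutive median of 0.50, with the germ change above the somatic one in 30 of 32 genes, against -0.02 over all genes.

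**Figure D4:**
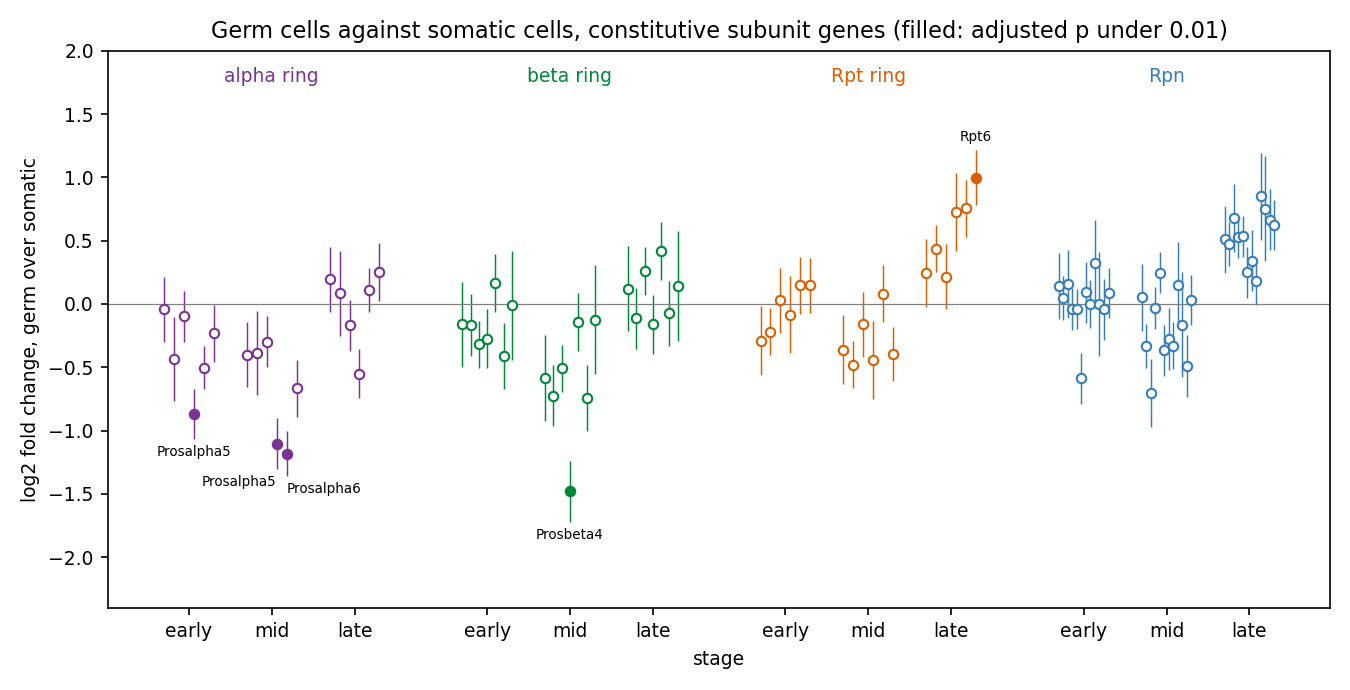
Log2 difference of germ over somatic cells (bars are SE) for 31 constitutive subunit genes at each stage, grouped by subcomplex, from the edgeR fit of 18 libraries. Filled and named points have an adjusted p under 0.01. Prosalpha5, Prosalpha6 and Prosbeta4 stand at -1.10, -1.18 and -1.48 at the mid stage, and all Rpt and Rpn points are above 0 at the late stage, where Rpt6 at 1.0 is filled.

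The stage changes of whole ovaries and of the sorted tissues were compared in 1 fit of all 27 libraries. From early to mid, the change in whole ovaries minus that in somatic cells had a constitutive median of 0.69 against -0.11 over all 11760 genes, with 0 of 38 members called (0.17% of all genes) and 12 at an unadjusted p under 0.05 (12.6% of all genes). Minus that in germ cells it had a median of 1.01 against 0.05, and 1 member was called (0.995% of all genes), Prosalpha6 (adjusted p = 0.00854), with 23 members at an unadjusted p under 0.05 (26.5% of all genes). From mid to late, 0 members were called against somatic cells (0.017% of all genes; 0 members at an unadjusted p under 0.05) and 0 against germ cells (2.64%), where 14 had an unadjusted p under 0.05 (28.2% of all genes). From early to late, 0 were called against somatic cells (0.927%; 12 at an unadjusted p under 0.05 against 15.2% of all genes) and 0 against germ cells (0.901%; 0 at an unadjusted p under 0.05). DESeq2 was not run on these differences, and strain and dissociation differ together with the tissue.

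Most of the 16 paralogs were at or near 0 or far below their partner. The exception was Prosalpha1R, described above with its copy, which had counts in all 27 libraries and shares reads with that copy. Of the other 15, Rpt3R, Prosbeta2R2, Rpt6R, Rpt4R and Rpn12R passed the filter in at least 1 fit, and their level per length was 0% to 7.52% of that of the constitutive partner of the same number in the mean of each tissue, highest for Rpt3R in germ cells. The remaining 10 had 0 to 30 counts summed over the 9 libraries of a tissue. Prosalpha3T, Prosbeta2R1 and Prosbeta4R2 had no count in any of the 27 libraries. Prosalpha4T1, Prosalpha4T2, Prosalpha6T, Prosbeta4R1, Prosbeta5R1, Prosbeta5R2 and Rpn13R had counts in at most 2 libraries of any tissue, and the 8 markers of spermatogenesis summed to 3.14 to 32.4 CPM.

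Rpt3R, a paralog of the ATPase gene Rpt3 (3R:9754735-9756510, BDGP6), was at 28.8, 26.1 and 10.8 CPM in the early, 0, 19.7 and 25.9 CPM in the mid and 27, 23.5 and 20.7 CPM in the late germ libraries. In somatic cells it was at 2.03, 2.69 and 1.14 CPM in the early, 3.54, 2.10 and 2.26 CPM in the mid and 0.367, 0.394 and 1.22 CPM in the late libraries. Apart from germ mid replicate 1, the shallowest library, at 0 with a floor of 0.310 CPM, every germ library was above every somatic one. Why Rpt3R was at 0 in that library was not tested. Germ cells were higher by a log2 difference of 3.73 ± 0.64 over all stages (adjusted p = 0.000272) and of 5.17 ± 1.20 at late (adjusted p = 0.00747). The call over all stages held without any 1 of the 18 libraries, and that at late held without 7 of them. Whole ovaries, which contain both cell types, had 5.45 to 11.2 CPM, with 9.35, 10.5 and 11.2 CPM at mid and 5.45, 6.21 and 6.39 CPM at late (log2 change -0.78 ± 0.18, edgeR adjusted p = 0.0124, DESeq2 adjusted p = 0.00162). Its partner Rpt3 did not differ beyond its error between the tissues, with a log2 difference of 0.03 ± 0.15.

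Rpn12R, a paralog of the lid gene Rpn12 (3L:15041631-15042570, BDGP6), had no count in any of the 9 somatic libraries, which allows up to 0.00949 CPM over the group. It had 411 counts in germ cells, spread over 7 of 9 libraries at 0.439 to 2.61 CPM, and was at least 153-fold higher there in pooled counts. It passed the filter of the joint fit through the germ cells, where it is high, so its call over all stages (adjusted p = 0.00282, lost without germ mid replicate 4) is no independent support. Whole ovaries had 0.162 to 2.23 CPM, highest in early replicate 3. Rpt4R showed a like pattern at a low level, with 489 counts in 6 germ libraries at 0.704 to 7.65 CPM and 25 counts in 2 somatic libraries, and it was at 0 in all 3 germ mid libraries. EdgeR called it in no comparison, and DESeq2 called it lower from early to mid (adjusted p = 0.00224) and higher from mid to late (adjusted p = 0.000162) in germ cells, both against the 3 mid libraries at 0.

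Prosbeta2R2, a paralog of the trypsin-like subunit gene (3R:5217751-5219528, BDGP6), was lower at late than at earlier stages in somatic cells and whole ovaries. In somatic cells it was at 5.40, 4.84 and 3.29 CPM in the early, 2.13, 1.68 and 0.954 CPM in the mid and 0.490, 0.394 and 0.358 CPM in the late libraries, without overlap between stages, and its log2 change from early to late was -3.42 ± 0.80 (adjusted p = 0.00555). In whole ovaries it was at 2.24, 2.30 and 1.71 CPM in the early libraries, below all mid ones, and went from 2.46, 2.53 and 3.57 CPM at mid to 0.237, 0.617 and 0.727 CPM at late, a log2 change of -2.38 ± 0.45 (adjusted p = 0.00443), and from early to late the change was -1.93 ± 0.44 (adjusted p = 0.00854). In germ cells it was at 3.90, 5.21 and 7.03 CPM in the early and at 4.42, 6.19 and 1.70 CPM in the late libraries, which overlap, and at 0, 0 and 8.47 CPM at mid. Leaving out 1 library at a time, the early to late call was kept in 3 of 9 cases in somatic cells (adjusted p up to 0.0286) and in 1 of 9 in whole ovaries (up to 0.0335). The mid to late call in whole ovaries was kept in 3 of 9 cases (edgeR adjusted p up to 0.0230).

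Rpt6R, a paralog of Rpt6 (3R:30582198-30583697, BDGP6), had higher values at late in all 3 tissues, which edgeR called in none of them. In somatic cells it was at 0.621, 0.178 and 1.73 CPM in the early and at 8.51, 7.62 and 4.36 CPM in the late libraries, with a log2 change of 3.03 ± 0.79 (edgeR adjusted p = 0.0106). In germ cells it was at 1.29, 0.796 and 0 CPM in the early and at 10.1, 11.3 and 10.3 CPM in the late libraries, and in whole ovaries it went from 0.626, 0.768 and 0.0970 CPM to 2.45, 1.63 and 2.83 CPM (log2 change 2.23 ± 0.65, edgeR adjusted p = 0.0244). DESeq2 called it higher in somatic cells (adjusted p = 0.000238) and in whole ovaries (adjusted p = 0.00235). Early and late libraries did not overlap in any tissue, although Rpt6 itself fell in somatic cells.

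**Figure D5:**
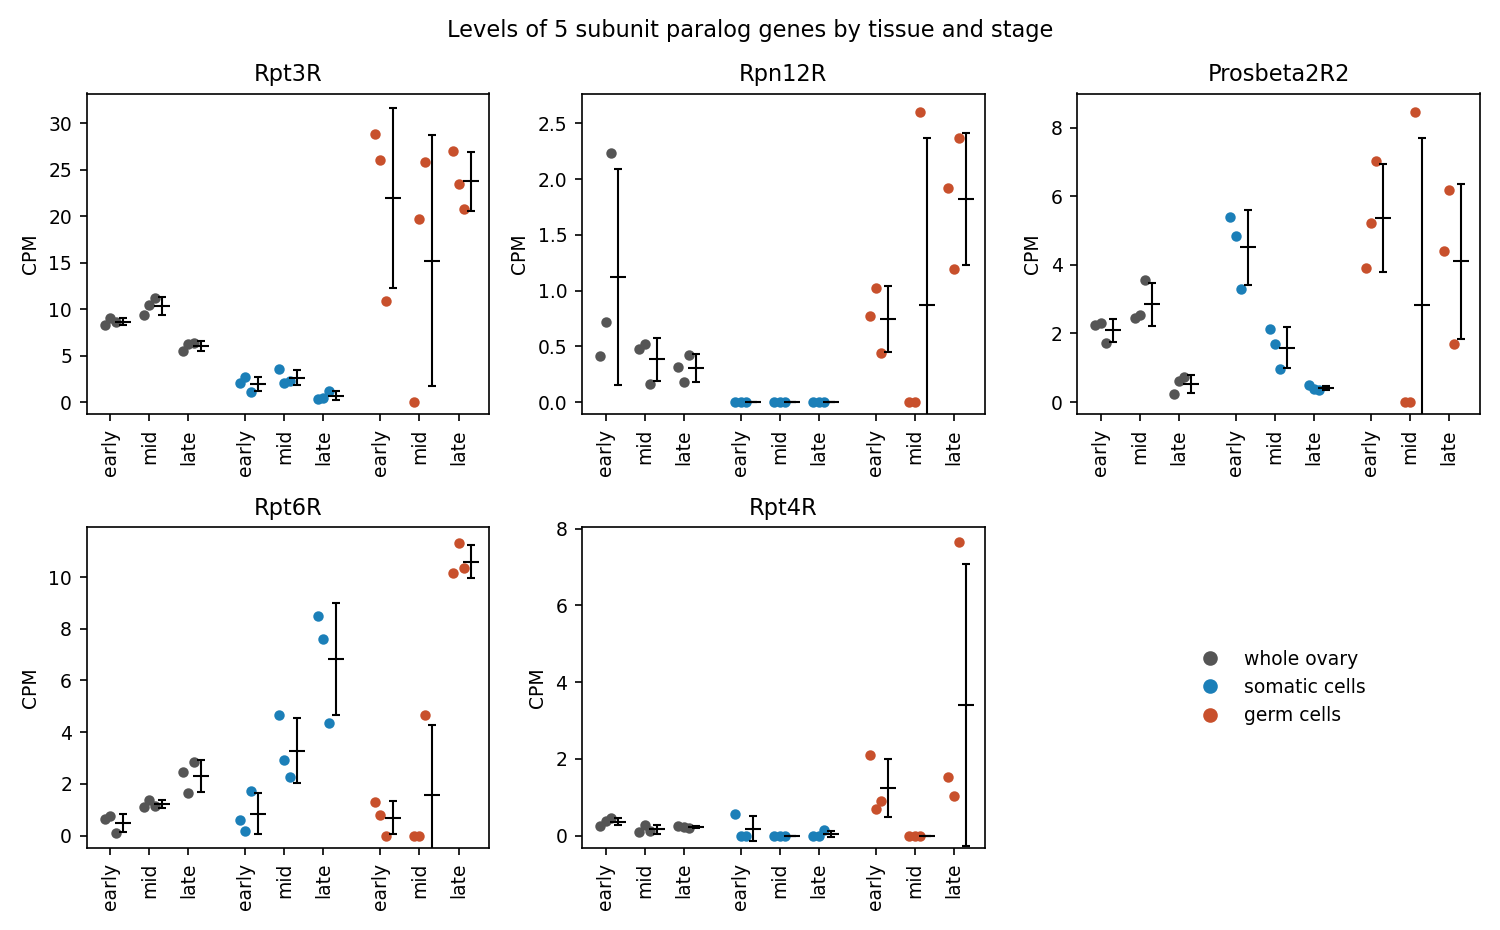
CPM of the paralogs Rpt3R, Rpn12R, Prosbeta2R2, Rpt6R and Rpt4R by tissue and stage, with 1 point per library and the mean ± SD of 3 libraries beside it (part of an error bar below 0 is not drawn). Rpt3R lies at 0 to 28.8 CPM in germ and 0.367 to 3.54 CPM in somatic cells, Rpn12R is at 0 in all somatic libraries, somatic Prosbeta2R2 goes from a mean of 4.51 to 0.414 CPM, and germ Rpt6R from 0.694 to 10.6 CPM.

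Genes that work with the proteasome were counted beside its subunits. Of 19 such genes, all tested, 5 rose and 2 fell in somatic cells from early to late, where 11.7% of all genes rose and 11.3% fell, and their median log2 change was 0.08. Those with the smallest p were Uch-L5 (0.85), a deubiquitinase of the regulatory particle, the ubiquitin shuttle Rad23 (0.83), the small Maf protein maf-S (-1.15), a partner of the transcription factor Cnc, Pomp (0.67), which assists assembly of the core particle, and the proteasome regulator PI31 (0.74). In whole ovaries Uch-L5 and PI31 rose from early to late by 0.72 and 0.49, where 8.39% of all genes rose. Over all stages PI31 (-0.96), the polyubiquitin gene Ubi-p63E (-0.54) and Uch-L5 (-0.40) were lower and maf-S (0.76) was higher in germ than in somatic cells, where 12.6% of all genes were lower and 12.7% higher. The 8 genes found of the COP9 signalosome, a complex related to the lid, had a somatic median of -0.14 from early to late, and CSN6 was higher in germ cells over all stages by 0.91.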

How the data were processed

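The study sequenced poly(A) RNA as single-end reads. Per the submitters' processing notes and the paper's methods, the authors used bcl2fastq 2.2, STAR 2.7.6a and RSEM 1.3.3 with the FlyBase annotation, and summed lanes per sample. The authors deposited expected counts per gene, not normalized, in which RSEM divides reads that map to several genes. Long copies of the same tables were not used. Rounded counts went through filterByExpr, with a minimum count of 10 in at least some libraries and of 15 in total per gene. TMM scaling and the robust quasi-likelihood test of edgeR 4.0.16 in R 4.3.3 with limma 3.58.1 followed. Calls were made at a Benjamini-Hochberg adjusted p under 0.01 over all genes tested. Each tissue's 9 libraries were fitted separately for stages, and the 18 sorted libraries together for tissues. SE is the log2 change over the root of F, and SD is over replicates. DESeq2 1.42.0, other scalings, no filter, a replicate block and leaving out each library were alternatives. The code was tested on simulated data.

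Named were the 5 called members of smallest p in each direction of each comparison, all paralogs that passed the filter, the 3 catalytic genes and the highest and lowest member of each subcomplex per length, and further members were added after their values were seen. Members and lists were chosen with earlier results of these data known. Floors cover counting error only, while SE and SD include the spread between libraries. The paper calls the replicates biological, and the labels do not say how they were separated, so p-values measure the spread between these libraries. Coordinates and exon lengths came from the Ensembl release of BDGP6. Exons of some members, Rpt6 most at 13.0% of its exon length, overlap another gene, and the strand setting of the counting is not given in the sources used here, so such reads are uncertain.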

Additional observations from a re-analysis of the deposited data

Results flagged for a closer look

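Some members had libraries of an early and a later stage that did not overlap in opposite directions in different tissues. From early to mid, 8 members were higher in all mid libraries of whole ovaries and lower in all mid libraries of somatic cells (Rpn6, Rpn8, Rpn11, Rpt1, Rpt2, Rpt6, Prosalpha2 and Prosbeta2R2), as 3.0% of all genes tested in both tissues went opposite ways, and 7 differed so between whole ovaries and germ cells (Rpn12, Rpt2, Rpt6, Prosalpha2, Prosalpha6, Prosalpha7 and Prosbeta5, 3.61% of all genes). In 1 fit of all 27 libraries, chosen after seeing the data, the difference of the changes from early to mid was called for 0 of 38 members between whole ovaries and somatic cells (12 at an unadjusted p under 0.05, 12.6% of all genes) and for 1, Prosalpha6, between whole ovaries and germ cells (adjusted p = 0.00854, 0.995% of all genes were called).

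From mid to late, 5 members went opposite ways in whole ovaries and germ cells (Rpn2, Rpn3, Rpn6, Rpt6 and Prosalpha7, 5.37% of all genes), where 0 differences were called and 14 had an unadjusted p under 0.05 (28.2% of all genes). In somatic and germ cells 7 did (Rpn2, Rpn3, Rpn12, Rpt6, Prosalpha6, Prosalpha7 and Prosbeta4, 4.03% of all genes), a difference that was not tested. From early to late, 2 members did so in whole ovaries and somatic cells (Rpn5 and Prosalpha6, 2.91% of all genes, with 0 differences called among all members and an adjusted p of 0.0665 for Prosalpha6) and 2 in somatic and germ cells (Rpn5 and Rpn7, 1.22% of all genes, with 0 called). DESeq2 was run on the last of these differences only, and called 0.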

How the results depend on the processing

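Of 30 called member results 0 reversed in 557 recalculations, and 439 recalculations kept the call. The recalculations reuse the same libraries, and some leave out a library outside the compared groups, so 0 reversed is no independent support. DESeq2 changed the counts of called members to 25 in somatic cells from early to late, 2 from early to mid, 4 between mid and late, 2 in whole ovaries from mid to late, 2 in germ cells from early to mid, 1 between mid and late, and 2 and 5 for germ against somatic cells at early and late. In whole ovaries from early to late DESeq2 called 2 members higher and 1 lower (12.4% and 16.6% of all genes). For germ against somatic cells over all stages DESeq2 called 3 higher and 3 lower (19.3% and 17.2% of all genes). Without the filter the counts were 1 in whole ovaries from early to late, 1 in somatic cells from mid to late and 0 for germ against somatic cells at early. With library totals they were 1 in whole ovaries from early to late, 2 in somatic cells from mid to late, and 8, 0 and 4 for germ against somatic cells over all stages, at early and at late. Without the germ mid libraries the last 3 were 8, 2 and 10, a fit chosen after seeing the data, as was the sum of Prosalpha1 and Prosalpha1R. The cause was not tested.

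Leaving out 1 library each gave 4 to 22 called members in somatic cells from early to late and 0 to 2 from mid to late, 0 to 3 in whole ovaries from mid to late, 0 to 2 from early to late, 0 to 6 in germ cells from early to mid, and for germ against somatic cells 0 to 2 at early, 3 to 11 at mid and 0 to 4 at late. A replicate block gave 14 members in somatic cells from early to late, 0 in whole ovaries from mid to late, 1 from early to late, and 0 for germ against somatic cells at early and at late. The share of all genes called is not given beside most counts of this section, so none is read as particular to the subunits. Whether shared numbers pair the libraries was not settled. Of same-number pairs, 4 of 9 in the whole ovary fit and 2 of 9 in the somatic fit correlated above 0.1. In the germ and sorted fits 0 of 6 and 5 of 36 did. The highest such correlation was 0.475, in whole ovaries, where the median was 0.0709 against 0.0623 in other pairs. Depth limits the paralogs near the floor.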
